A study of Mus musculus with 130 samples.

Results

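Bile acids are made from cholesterol in hepatocytes, joined to taurine or glycine, pumped into bile and largely taken up again from the gut and portal blood. The 10 genes described here cover those steps: Cyp7a1, Cyp8b1 and Cyp27a1 (synthesis), Baat (conjugation), Abcb11, Abcb4, Slc10a1 and Slc51b (transport), and the nuclear receptors Nr1h4 and Nr0b2. They were chosen by name, and all 10 were found among the 35274 genes of a diet table and the 35711 genes of a strain table. The study asked how dietary iron, and strain on an iron-loaded diet, change liver transcripts. All mice were labelled male, and each library was made from RNA of a piece of the large lobe of 1 mouse. In the diet study, C57BL/6J mice ate chow, 50 ppm iron (labelled sufficient), 500 ppm iron (labelled elevated), 2% carbonyl iron (20000 ppm), or 2% carbonyl iron with cellulose named as the source of fibre, with 3 mice per diet. The strain panel held 115 libraries of 114 strains. All of them were labelled with the 2% carbonyl iron diet, given for 6 weeks after 4 weeks of chow, so the panel has no mouse on low iron. There were 56 strains of the BXD family, 20 of AXB/BXA, 4 of BXH, 3 of CXB (all recombinant inbred) and 31 further inbred strains. Each strain gave 1 mouse, and 129X1/SvJ gave 2. The labels give no iron content of chow, no age, and no time on diet for the diet study.

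In the classic pathway Cyp7a1 sets the rate of synthesis, and Cyp8b1, the sterol 12-alpha-hydroxylase, directs the product towards cholic acid. Cyp27a1 oxidises the sterol side chain in mitochondria and also starts the alternative pathway. Bile acids activate the receptor FXR (Nr1h4), which raises transcription of the export pumps and of the repressor SHP (Nr0b2), and SHP in turn lowers Cyp7a1 and Cyp8b1. The same loop is fed from the ileum through FGF15.

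Expected counts per library summed to 10.4 M to 20.4 M in the diet study and to 9.41 M to 20.6 M in the panel. Levels below are CPM, counts scaled to library size, after TMM scaling, which balances library composition, as mean ± SD over mice, and comparisons between genes use TPM, which divides by transcript length. A gene was called where the adjusted p of the edgeR quasi-likelihood test over all 13560 tested genes was under 0.05. The tested set held 9 of the 10 genes: Slc51b had too few counts for the filter. No replicates were near copies of each other. Hepatocyte markers (8 genes, led by Alb) summed to 80715 to 107052 CPM in the diet libraries. The 6 intestinal markers summed to 8.70 to 31.5 CPM, with Fabp6 and Cdx2 at 0 counts in all 15 diet libraries (below 0.147 to 0.288 CPM, the level of 3 counts). Their 1 tested member, Lgals4, was called lower in 2% iron against 50 ppm (log2 -0.90, adjusted p = 0.0286) and 500 ppm (log2 -0.98, adjusted p = 0.0223). In the panel, BXD65/RwwJ had 3.94 CPM summed over 4 Y-linked genes against 118 CPM in the next lowest strain, which goes against its label as male. BALB/cJ held 105.9 CPM of pancreas markers against 17.5 CPM in the next highest strain.

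Cyp7a1 (GRCm38 chr4:6265612-6275633, minus strand) was lower in the mice on 2% iron. On 50 ppm the 3 mice had 334.9, 147.5 and 353.3 CPM, and on 2% iron they had 101.7, 91.03 and 133.5 CPM. The lowest mouse on 50 ppm stood above the highest on 2% iron, so the groups did not overlap. The means were 279 ± 114 and 109 ± 22.1 CPM (n = 3 each), a log2 change of -1.36 (SE 0.39, adjusted p = 0.0319). Against chow, where the mice had 397.0, 407.9 and 174.9 CPM, the log2 change was -1.59 (SE 0.39, adjusted p = 0.0105). With cellulose the 3 mice on 2% iron had 41.7, 36.7 and 53.5 CPM, all below the 3 on 2% iron without that label, and the log2 change against 50 ppm was -2.66 (SE 0.41, adjusted p = 0.000558). Direct comparison of the 2% groups gave a log2 difference of -1.31 (SE 0.40), which did not pass (adjusted p = 0.20). The call for 2% iron against 50 ppm was lost in 5 of 6 refits that left out 1 mouse (adjusted p 0.0553 without replicate 3 of 2% iron to 0.116 without replicate 1 of 50 ppm), with a log2 change of -1.15 to -1.53 in those 5, and was kept without replicate 2 of 50 ppm, the low mouse. On 500 ppm the mice had 341.1, 142.5 and 173.8 CPM, also without overlap with 2% iron, but that difference did not pass (log2 -1.01, adjusted p = 0.112).

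Cyp8b1 (chr9:121914356-121916305, minus strand) was lower on 2% iron with little spread among those mice. Its 3 values were 765.2, 601.3 and 536.1 CPM on 50 ppm and 328.0, 328.8 and 308.1 CPM on 2% iron. The log2 change was -0.98 (SE 0.20, adjusted p = 0.00556), and against chow it was -1.19 (SE 0.20, adjusted p = 0.00102), with no overlap in either comparison. The level on 500 ppm lay between, at 653.4, 350.9 and 573.3 CPM. Against that group 2% iron gave -0.71 (SE 0.20, adjusted p = 0.0325), a call lost in 5 of 6 refits without 1 mouse (adjusted p 0.075 to 0.156; it was kept without replicate 2 of 500 ppm, the lowest of that group). With cellulose the mice had 195.6, 177.0 and 228.9 CPM, and the log2 change against 50 ppm was -1.66 (SE 0.20, adjusted p = 0.000124).

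Cyp27a1 (chr1:74713574-74737892, plus strand) differed less. It had 426 ± 34.2 CPM on 50 ppm and 374 ± 33.2 CPM on 2% iron, with overlapping mice (log2 -0.19, adjusted p = 0.28). Chow mice were the highest, at 500.1, 578.2 and 504.9 CPM, and against them the log2 change on 2% iron was -0.50 (SE 0.11, adjusted p = 0.00609). The cellulose group had 273.1, 263.1 and 304.3 CPM, a log2 change of -0.60 from 50 ppm (SE 0.11, adjusted p = 0.00164).

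Baat (chr4:49489422-49506557, minus strand), the enzyme that joins bile acids to taurine or glycine, showed the smallest adjusted p of the 9 genes in each contrast of 2% iron with 50 ppm, chow or 500 ppm. The 3 mice had 250.6, 219.1 and 204.8 CPM on 50 ppm, 215.5, 177.2 and 189.1 CPM on 500 ppm, and 147.3, 149.4 and 131.6 CPM on 2% iron. The mice on 2% iron lay below all mice on either lower dose. Log2 changes on 2% iron were -0.66 against 50 ppm (SE 0.10, adjusted p = 0.0015), -0.77 against chow (SE 0.10, adjusted p = 0.000262) and -0.44 against 500 ppm (SE 0.10, adjusted p = 0.0142). The call against 500 ppm was lost without replicate 3 of 2% iron (adjusted p = 0.0662) or replicate 1 of 500 ppm (adjusted p = 0.0759). The cellulose group stood at 121.3, 111.0 and 116.8 CPM.

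Of the tested transporters, none passed in 2% iron against 50 ppm, chow or 500 ppm. Abcb11 (chr2:69238282-69342616, minus strand), the bile salt export pump, had 520.5, 546.2 and 608.2 CPM on 50 ppm and 306.2, 524.5 and 455.0 CPM on 2% iron (log2 -0.38, 95% interval -0.87 to 0.10, adjusted p = 0.279). Against chow the groups did not overlap (656 ± 46.7 against 429 ± 111.5 CPM), and the log2 difference of -0.61 missed the threshold (adjusted p = 0.0664; 0.0445 without replicate 2 of 2% iron). An antisense gene and a pseudogene on the opposite strand overlap it, and whether counting used the strand is not given in the sources used here. Abcb4 (chr5:8893717-8959231, plus strand), which moves phosphatidylcholine into bile, had 399 ± 52.8 CPM on 50 ppm and 346 ± 70.7 CPM on 2% iron (log2 -0.21, interval -0.55 to 0.13). Slc10a1 (chr12:80953183-80968705, minus strand), the sodium-dependent uptake carrier NTCP, had 811 ± 161 and 719 ± 71.4 CPM (log2 -0.17, interval -0.49 to 0.14). A change as large as that of Cyp8b1 lay outside both intervals. Chow mice had 611 ± 79.2 CPM of Slc10a1 and overlapped those on 2% iron. It was the 1 gene of the 9 with a change above 0 in 2% iron against chow.

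Slc51b (chr9:65412714-65422955, minus strand), a subunit of the basolateral exporter OST and a target of FXR, was close to the counting floor. Its expected counts were 0, 0 and 2 on 50 ppm, 2, 0 and 1.91 on chow, 1, 8 and 4 on 500 ppm, 0, 0 and 1 on 2% iron, and 2, 8.99 and 3.80 on 2% iron with cellulose. With 9 or fewer counts per library no fold was computed. The other subunit, Slc51a, was likewise not tested, and Rasl12 overlaps Slc51b on the opposite strand.

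Nr0b2 (chr4:133553376-133556536, plus strand), the repressor SHP, was lower on 2% iron against 50 ppm, as Cyp7a1 and Cyp8b1 were. It had 35.7, 37.1 and 25.9 CPM on 50 ppm and 9.45, 14.4 and 4.52 CPM on 2% iron, with no overlap. The log2 change was -1.80 (SE 0.46, adjusted p = 0.0181), the largest of the 9 genes in that contrast. Of 6 refits without 1 mouse, 4 lost the call (adjusted p 0.0504 without replicate 2 of 50 ppm to 0.0731 without replicate 3 of 2% iron; also without replicate 1 of either group), with a log2 change of -1.47 to -1.81. Chow mice had 9.87, 26.002 and 25.2 CPM and overlapped the 2% group (log2 -1.11, adjusted p = 0.10; 0.0436 without replicate 1 of chow). On 500 ppm the 3 values were 10.8, 18.4 and 20.5 CPM, below the 50 ppm group without overlap, yet that difference did not pass (log2 -0.98, unadjusted p = 0.0409, adjusted p = 1).

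Nr1h4 (chr10:89454234-89533585, minus strand), the bile acid receptor FXR, moved by less. Its values were 133.8, 124.3 and 134.3 CPM on 50 ppm and 116.5, 103.5 and 91.99 CPM on 2% iron (log2 -0.33, SE 0.12, adjusted p = 0.0699; 0.0455 without replicate 1 of 2% iron). Against chow the change of -0.36 passed (SE 0.12, adjusted p = 0.0377), but 5 of 6 refits without 1 mouse lost it (adjusted p 0.062 without replicate 3 of chow to 0.145 without replicate 3 of 2% iron). The cellulose group, at 105.0, 94.9 and 84.4 CPM, was lower than the 50 ppm group (log2 change -0.46, SE 0.12, adjusted p = 0.00877).

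Counted over the set, 4 of the 9 tested genes were called in 2% iron against 50 ppm, all lower, where 15.7% of all tested genes were called (8.52% higher, 7.17% lower). The median log2 change of the 9 was -0.38 and that of all tested genes was 0.01. Against chow 5 of 9 were called, all lower (22.8% of all genes called, 11.9% higher and 10.9% lower), with a median of -0.61. Against 500 ppm 2 of 9 were called lower (11.3% called, 6.59% higher and 4.75% lower). With cellulose, 7 of 9 were called lower against 50 ppm (29.7% called, 15.4% higher and 14.3% lower), and in that contrast Nr0b2 had log2 -1.78 (adjusted p = 0.0102) and Abcb11 log2 -0.77 (adjusted p = 0.0203). The call of Abcb11 was lost without replicate 1 (adjusted p = 0.0799) or 2 (0.064) of the cellulose group, or without replicate 3 of 50 ppm (0.0609). These contrasts share the 2% iron or the 50 ppm mice. The plot of log2 changes shows them side by side. Only the cellulose group has a labelled source of fibre, and chow has no labelled iron content. In the contrasts with chow, and of the cellulose group with 50 ppm, iron cannot be told apart from the rest of the diet. Among the diet contrasts, edgeR called Cyp27a1 and Nr1h4 in these alone.

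None of the 9 was called in 500 ppm against 50 ppm (0% of all genes called; 1 of 9 at an unadjusted p under 0.05, beside 428 of 13560 genes; 0 with DESeq2), 500 ppm against chow (0.59%, with 0.184% higher and 0.406% lower; 4 of 9 unadjusted, beside 1858 genes; 0 with DESeq2), or chow against 50 ppm (0.391%, with 0.265% higher and 0.125% lower; 2 of 9 unadjusted, beside 1408 genes; 0 with DESeq2). The 2 diets with 2% iron did not differ by edgeR for any of the 9 (0.0811% of all genes called, 0.00737% higher and 0.0737% lower; 4 of 9 unadjusted, beside 1757 genes). DESeq2 called 2 there, Cyp8b1 (log2 -0.68, adjusted p = 0.0436) and Cyp27a1 (log2 -0.41, adjusted p = 0.0259), named after their values were seen.

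**Figure D1:**
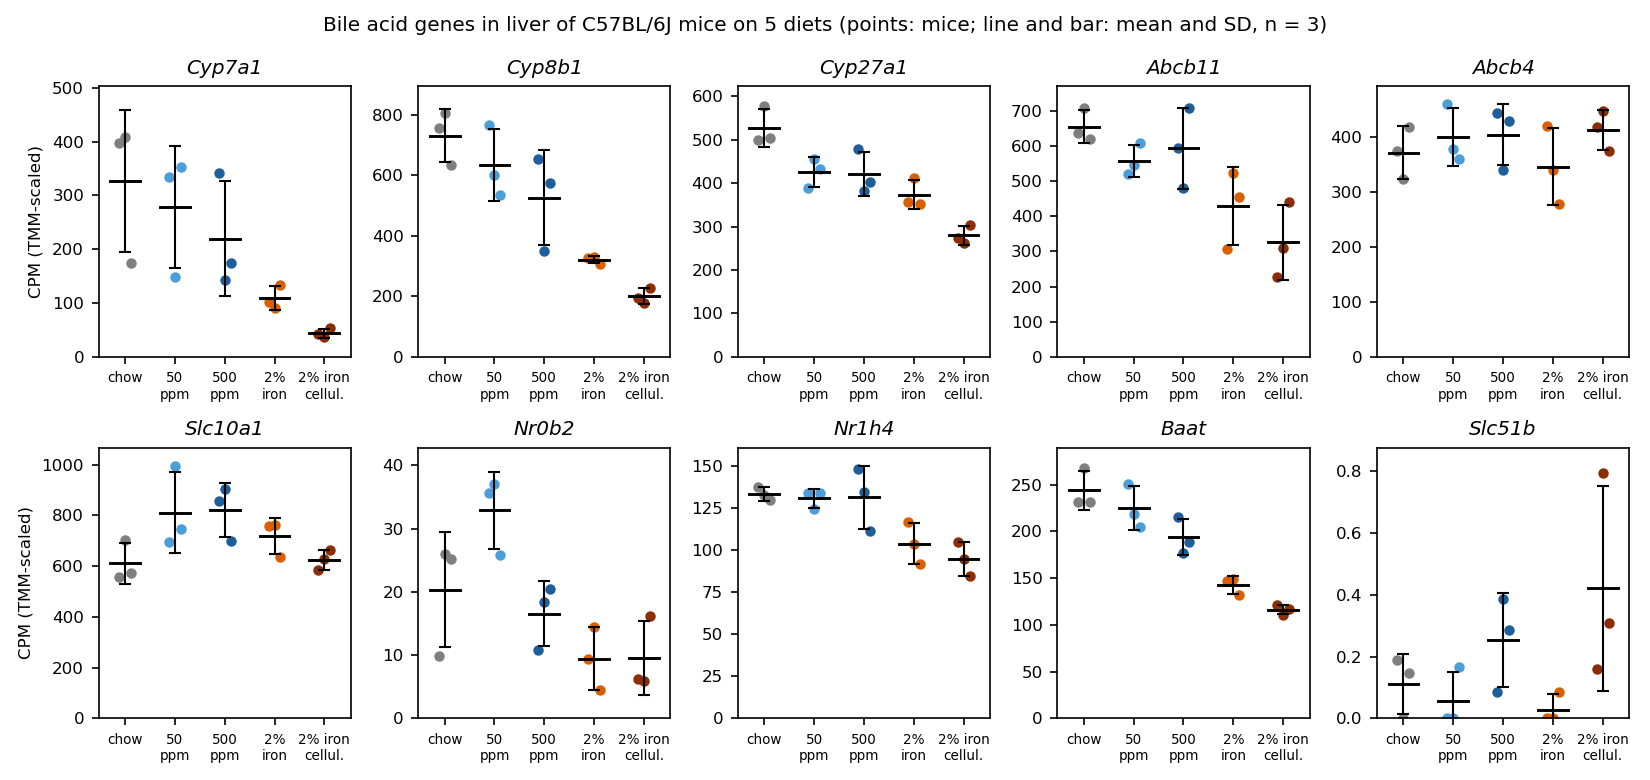
CPM (vertical axis, from 0) of the 10 genes in 15 C57BL/6J livers by diet; points are mice, lines and bars are mean and SD of 3 mice. Cyp7a1, Cyp8b1 and Baat of the mice on 2% iron lie below all mice on 50 ppm and chow, Abcb4 and Slc10a1 overlap between 50 ppm and 2% iron, and Slc51b stays below 0.8 CPM.

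**Figure D2:**
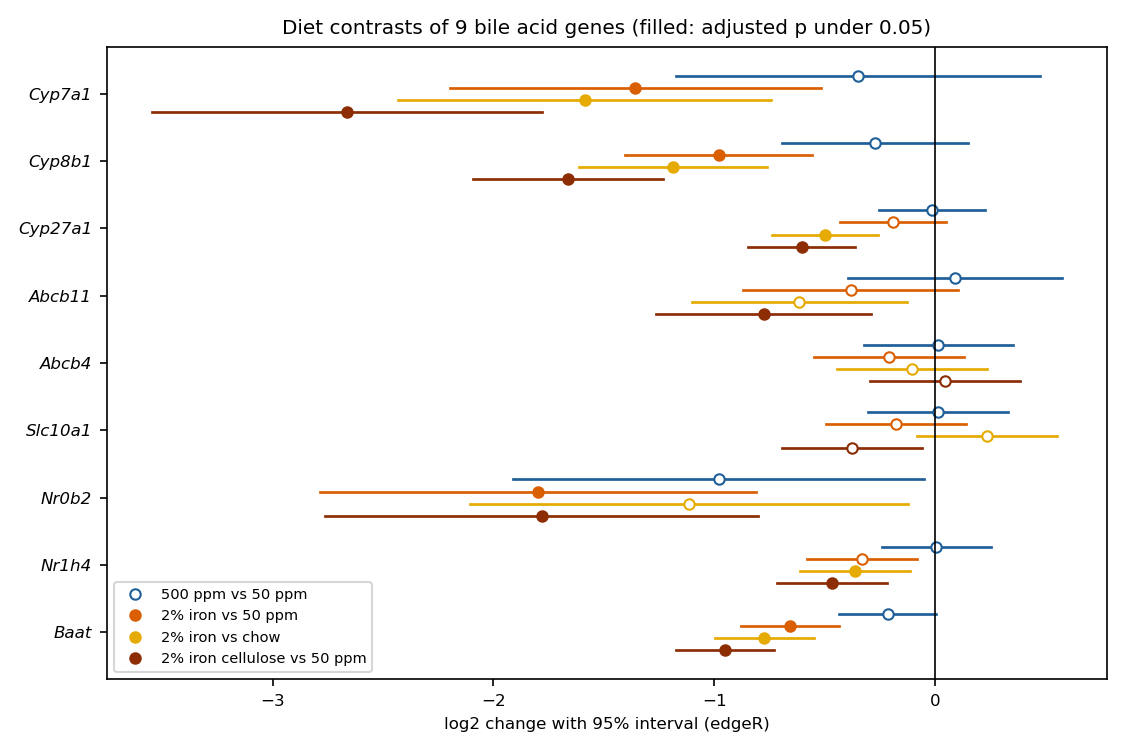
Log2 change (horizontal axis) with its 95% interval from edgeR for 9 genes in 4 contrasts, with filled points where adjusted p was under 0.05. No gene passed in 500 ppm against 50 ppm, while 4, 5 and 7 passed in 2% iron against 50 ppm, 2% iron against chow and 2% iron with cellulose against 50 ppm.

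Per transcript length, the order of the 10 genes on 50 ppm was led by Slc10a1 (526.7 ± 123 TPM), Cyp8b1 (348 ± 34.5 TPM) and Cyp27a1 (273 ± 42.8 TPM), which did not overlap one another. Cyp7a1 came next at 155 ± 65.0 TPM and overlapped Baat (127 ± 3.15 TPM), Abcb11 (115 ± 18.2 TPM) and Abcb4 (103 ± 3.46 TPM). Abcb11 also overlapped Baat and Abcb4. Nr1h4 (70.7 ± 6.19 TPM) and Nr0b2 (33.9 ± 5.30 TPM) followed, without overlap with their neighbours, above Slc51b (0.11 TPM). On 2% iron the order was Slc10a1 (488 ± 67.9 TPM), Cyp27a1 (255.7 ± 35.5 TPM), Cyp8b1 (185.97 ± 14.5 TPM), Abcb4 (96.03 ± 19.96 TPM), Abcb11 (92.3 ± 25.1 TPM), Baat (84.1 ± 8.91 TPM), Nr1h4 (58.7 ± 8.55 TPM), Cyp7a1 (44.7 ± 5.72 TPM), Nr0b2 (10.4 ± 5.78 TPM) and Slc51b (0.05 TPM). Cyp27a1 thus stood above Cyp8b1 without overlap, and Cyp7a1 overlapped Nr1h4.

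Promoter sequence is shown for Cyp8b1 and Nr0b2, which fell on 2% iron, and for Abcb11, a textbook FXR target that was not called there. The 250 bases before the start site come from RefSeq (GRCm38.p6), whose table had windows for 8 of the 10 genes and none for Cyp7a1 or Baat. Each is written 5′ to 3′ on the gene's strand, and capitals mark the motif matches.
Cyp8b1 (chr9:121916306-121916555, minus strand): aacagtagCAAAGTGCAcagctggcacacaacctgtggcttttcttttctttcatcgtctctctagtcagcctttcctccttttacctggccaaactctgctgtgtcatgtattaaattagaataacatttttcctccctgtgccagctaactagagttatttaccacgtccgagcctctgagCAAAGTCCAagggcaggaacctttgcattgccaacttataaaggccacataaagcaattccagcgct
Nr0b2 (chr4:133553126-133553375, plus strand): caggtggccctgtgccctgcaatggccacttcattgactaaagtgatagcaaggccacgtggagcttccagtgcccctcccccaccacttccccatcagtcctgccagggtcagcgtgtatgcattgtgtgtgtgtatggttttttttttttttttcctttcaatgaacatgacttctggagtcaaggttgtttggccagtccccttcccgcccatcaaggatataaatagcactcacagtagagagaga
Abcb11 (chr2:69342617-69342866, minus strand): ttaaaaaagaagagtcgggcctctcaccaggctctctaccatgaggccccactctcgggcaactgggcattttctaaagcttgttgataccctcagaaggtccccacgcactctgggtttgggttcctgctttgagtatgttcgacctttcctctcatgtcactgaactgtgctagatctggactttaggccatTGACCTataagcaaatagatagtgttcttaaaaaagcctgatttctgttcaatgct
The motifs searched, on both strands, were the FXR inverted repeat (IR-1), the LRH-1 site TCAAGGNCA, the HNF4A site CAAAGTNCA and the nuclear receptor core site AGGTCA, which is contained in the inverted repeat. Cyp8b1 held 2 matches to the HNF4A site, CAAAGTGCA starting at position -242 and CAAAGTCCA at -67 from the start site. That motif occurs in 1.19% of the 32851 RefSeq promoter windows of this length. Abcb11 held 1 core site, on the opposite strand, at -56, and single core sites also lay in the windows of Slc51b (-203), Nr1h4 (-214) and 1 of 2 windows of Slc10a1 (-87), against 14% of all windows. No window of the 8 genes held an exact match to the inverted repeat (0.00609% of all windows) or the LRH-1 site (1.39%). That of Nr0b2 held none of the 4 motifs. Only 2 of the 32851 windows held the exact inverted repeat. Sites with a differing base were not counted, so these misses cannot show that a gene lacks a site.

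The other genes of bile acid handling were counted from lists of the pathway. Of 11 tested synthesis enzymes, 5 were called lower and 1 higher in 2% iron against 50 ppm, and 7 lower and 1 higher against chow. Of all tested genes, 7.17% were called lower and 8.52% higher against 50 ppm, and 10.9% lower and 11.9% higher against chow. Cyp7b1, the oxysterol 7-alpha-hydroxylase of the alternative pathway, had 26.5 ± 3.56 CPM on 2% iron, against 89.2 ± 82.5 CPM on 50 ppm (log2 -1.75, adjusted p = 0.0321) and 159 ± 36.5 CPM on chow (log2 -2.59, adjusted p = 0.00307). Cyp2c70, which makes muricholic acids in mice, was higher on 2% iron (371 ± 53.5 against 185 ± 40.9 CPM on 50 ppm; log2 1.005, adjusted p = 0.0274), with 349 ± 47.04 CPM on chow (not called). Cyp46a1, a cholesterol 24-hydroxylase, was higher than on chow (5.04 ± 1.08 against 2.38 ± 0.08 CPM; log2 1.07, adjusted p = 0.0268). Scp2, the thiolase and sterol carrier of peroxisomal side-chain shortening, fell from 3713 ± 566 CPM on 50 ppm to 2062 ± 300.2 CPM (log2 -0.85, adjusted p = 0.00336).

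Of 12 other tested transporters, 3 were called lower against 50 ppm and 4 against chow, with none higher (7.17% and 10.9% of all tested genes were called lower). Slco1a1, a sinusoidal uptake carrier of organic anions, had 203 ± 60.0 CPM on 2% iron and 556 ± 115 CPM on 50 ppm (log2 -1.45, adjusted p = 0.00506). Slco1b2, the main OATP1B carrier of mouse liver, gave log2 -0.84 (adjusted p = 0.00653), and both were also lower than on chow (log2 -1.33 and -0.77). Abcc3, a basolateral exporter, was lower than on chow (245 ± 23.9 against 469 ± 28.2 CPM; log2 -0.93, adjusted p = 0.000742). Slco2b1 was also lower than on chow (log2 -0.41, adjusted p = 0.00333).

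Of 14 other tested regulators, 1 was called lower and none higher against 50 ppm, where 7.17% of all tested genes were called lower, and 2 were called lower and 1 higher against chow (10.9% and 11.9% of all genes). The one against 50 ppm was Nr1i3, the xenobiotic receptor CAR, with 139 ± 43.6 against 268 ± 35.9 CPM (log2 -0.95, adjusted p = 0.0105), and it was also lower than on chow (log2 -1.02, adjusted p = 0.00462). Mafg, a repressor of bile acid synthesis genes, was lower (log2 -0.44, adjusted p = 0.0111) and Ppargc1a, a coactivator, higher (log2 0.86, adjusted p = 0.0344) against chow alone. Hnf4a, for whose motif Cyp8b1 was shown above, had 707 ± 3.78 CPM on 2% iron and 635 ± 18.9 CPM on 50 ppm (log2 0.16, adjusted p = 0.231). It was not called against chow either (log2 0.13, adjusted p = 0.307). Against 500 ppm, with 580 ± 34.9 CPM, Hnf4a was called higher on 2% iron (log2 0.29, adjusted p = 0.0421). Of the 4 detoxification genes, Cyp2b10, a CAR target, was higher on 2% iron (32.5 ± 4.22 against 0.67 ± 0.64 CPM on 50 ppm; log2 5.63, adjusted p = 0.00684), though chow mice had 48.6 ± 48.4 CPM. Sult2a8, a bile acid sulfotransferase, was lower against both 50 ppm (log2 -1.76, adjusted p = 0.00154) and chow (log2 -1.95, adjusted p = 0.000399). Cyp3a11 (log2 -2.06, adjusted p = 0.000612) and Ugt1a1 (log2 -0.44, adjusted p = 0.0151) were lower against chow. Cyp3a11 was as low on 500 ppm against chow (log2 -2.08, adjusted p = 0.00989). It did not differ between 2% iron and 500 ppm (log2 0.014, adjusted p = 0.964).

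Markers of cell types were also counted. Of all tested genes, 8.52% were called higher and 7.17% lower in 2% iron against 50 ppm, and 11.9% and 10.9% against chow. All 8 macrophage markers were called higher in 2% iron against 50 ppm (median log2 1.63), and their sum rose from 127 to 204 CPM on 50 ppm to 515 to 553 CPM on 2% iron. Erythroid markers were split, with 3 of 4 called higher (Hbb-bs, Hba-a1 and Slc4a1) and Alas2 lower. None of the 4 tested cholangiocyte markers was called, and of the 8 hepatocyte markers 2 were called lower and none higher. Of the others, 1 of 6 endothelial markers (Stab2, log2 0.80) and 1 of 6 stellate markers (Colec11, log2 0.43) were called higher against 50 ppm. Beside the shares of all genes, 1 call in so short a list is not read as a change of the list. Against chow, all 8 macrophage markers, 1 endothelial marker (Stab2) and 4 stellate markers (Dcn, Colec11, Ngfr and Pdgfrb) were called higher. In that contrast 3 of 4 erythroid markers were called higher and 1 lower. Of the 8 hepatocyte markers 1 was called higher and 2 lower, and no cholangiocyte marker was called. In bulk liver, fewer cells of a type and less RNA per cell cannot be told apart, and the part of these markers in the results above was not tested. Dbp, a clock output gene and a regulator of Cyp7a1 by the hour of day, had 3.07, 1.6001 and 8.45 CPM on 2% iron and 44.2, 5.90 and 31.99 CPM on 50 ppm (log2 -2.64, adjusted p = 0.188). In the cellulose group, which had the lowest Cyp7a1, Dbp stood at 55.8, 81.6 and 15.4 CPM. Of the 9 clock genes, 1 (Nr1d1) was called lower against 50 ppm and 2 against chow, with none higher. The hour of tissue collection is not given in the sources used here, and its part in the results was not tested.

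Among the 114 strains on 2% iron, the 10 genes differed widely in how much they varied. Cyp7a1 ran from 3.60 CPM in BXH2/TyJ and 7.91 CPM in NON/ShiLtJ to 422 CPM in DBA/2J and 561 CPM in BXA4/PgnJ, with a median of 106 CPM. The ends differed 155.9-fold, and the quartiles, 54.5 and 178 CPM, differed 3.27-fold. Cyp8b1 ran from 10.4 CPM in FVB/NJ and 18.96 CPM in BXD74/RwwJ through a median of 141.5 CPM to 398 CPM in C57L/J and 404 CPM in BXH8/TyJ.

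Of the other genes, Cyp27a1 ran from 98.2 CPM (NZB/BlNJ) and 108 CPM (NZW/LacJ) to 423 CPM (AXB10/PgnJ) and 438 CPM (AXB19a/PgnJ), with a median of 281 CPM. Baat ran from 43.5 CPM (BXH2/TyJ) and 63.9 CPM (NZB/BlNJ) to 205 CPM (BXD48/RwwJ) and 218 CPM (BXD14/TyJ), with a median of 143 CPM. Abcb11 ran from 73.7 CPM (NZB/BlNJ) and 95.5 CPM (BXH2/TyJ) to 732.98 CPM (BXD15/TyJ) and 827 CPM (BXD29/Ty), with a median of 374 CPM. Abcb4 was the most even, from 227 CPM (BXD27/TyJ) and 253 CPM (BXD18/TyJ) to 619 CPM (BXD38/TyJ) and 651 CPM (I/LnJ), a 2.87-fold range. Slc10a1 ran from 179 CPM (NZB/BlNJ) and 240 CPM (BXH2/TyJ) to 1083 CPM (C57BLKS/J) and 1224 CPM (AXB19/PgnJ), with a median of 722 CPM. For the receptors, Nr1h4 ran from 47.1 CPM (NZB/BlNJ) and 53.7 CPM (BXH2/TyJ) to 166 CPM (BXD14/TyJ) and 175 CPM (CE/J), and Nr0b2 from 4.07 CPM (AKR/J) and 4.17 CPM (BXD49/RwwJ) to 34.3 CPM (BXD51/RwwJ) and 43.4 CPM (A/J). Slc51b had 0 counts in 6 strains and at most 26.98 expected counts, up to 1.94 CPM in BXA12/PgnJ and 2.27 CPM in SEA/GnJ.

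With 1 mouse per strain, a strain and its mouse cannot be told apart, so the spread between strains was set beside that within the diet groups. The SD of log2 CPM between strains was 1.44 for Cyp7a1, 0.90 for Cyp8b1, 0.39 for Cyp27a1, 0.37 for Baat and 0.73 for Nr0b2. The pooled SD within diet groups was 0.56, 0.27, 0.13, 0.12 and 0.67, in the same order. Ratios of the former to the latter were 3.33 for Cyp8b1, 3.11 for Baat, 2.99 for Cyp27a1, 2.57 for Cyp7a1, 2.33 for Nr1h4, 2.32 for Slc10a1, 1.81 for Abcb11, 1.39 for Abcb4 and 1.08 for Nr0b2, against a median of 1.62 over 15617 genes. Nr0b2 thus varied between strains by about as much as between mice of one strain and diet. The diet mice and the panel are separate tables, and this ratio was given no test. The 2 mice of 129X1/SvJ had 118 and 59.5 CPM of Cyp7a1, 253 and 337.5 CPM of Cyp8b1, and 487 and 496 CPM of Abcb11.

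Among parents of the recombinant inbred families, C57BL/6J had 156.4 CPM of Cyp7a1, DBA/2J 422 CPM and A/J 111.7 CPM. For Cyp8b1 the order was DBA/2J (243 CPM), A/J (130 CPM) and C57BL/6J (122 CPM), and for Nr0b2 it was A/J (43.4 CPM), C57BL/6J (15.3 CPM) and DBA/2J (6.93 CPM). These are single mice. Labelled substrains also differed: AXB19/PgnJ, AXB19a/PgnJ and AXB19b/PgnJ had 152, 64.4 and 253 CPM of Cyp7a1 but 113, 102 and 110 CPM of Cyp8b1, and BXD48/RwwJ and BXD48a/RwwJ had 131 and 52.9 CPM of Cyp7a1 and 85.6 and 114 CPM of Cyp8b1.

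**Figure D3:**
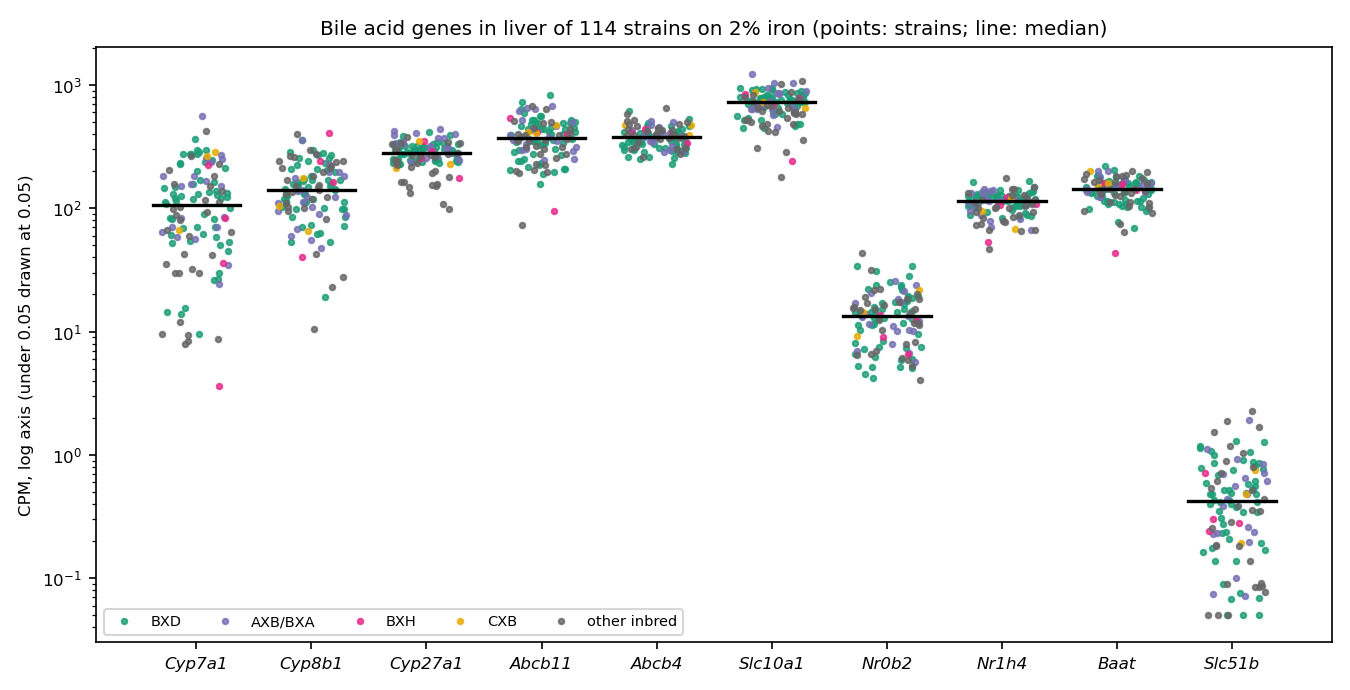
CPM on a log axis of the 10 genes in 114 strains on 2% iron; points are strains coloured by family and lines are medians. Cyp7a1 spans 3.60 to 561 CPM and Abcb4 227 to 651 CPM, and Slc51b stays below 2.28 CPM.

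Cyp27a1 was the gene whose strains fell into 2 clusters by a fixed criterion on its log2 CPM, which it passed by a small margin. The lower cluster held 11 strains between 98.2 and 180 CPM, and the other 103 strains lay between 192.7 and 438 CPM. No wide gap thus parted the clusters. The lower 11 were 10 of the 31 other inbred strains (NZB/BlNJ, NZW/LacJ, NON/ShiLtJ, AKR/J, FVB/NJ, BUB/BnJ, BTBR T<+> tf/J, PL/J, SJL/J and SEA/GnJ) and BXH2/TyJ. None of the 56 BXD or 20 AXB/BXA strains was in it. These families carry alleles of 3 parents, C57BL/6J, DBA/2J and A/J, which themselves had 300, 232 and 258 CPM. The clusters were drawn from the values, so no test was made of them.

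Some strains were low in many of the genes. BXH2/TyJ and NZB/BlNJ were each among the 5 lowest strains for 6 of the 10, and BTBR T<+> tf/J and FVB/NJ for 5. For instance, BXH2/TyJ was the lowest strain for Cyp7a1 (3.60 CPM) and Baat (43.5 CPM), and NZB/BlNJ was the lowest for Cyp27a1, Abcb11, Slc10a1 and Nr1h4. Cyp8b1 stood at 40.4 CPM in BXH2/TyJ, 27.4 CPM in NZB/BlNJ, 22.9 CPM in BTBR T<+> tf/J and 10.4 CPM in FVB/NJ, which with BXD74/RwwJ were its 5 lowest. Abcb4 had 435 CPM in BXH2/TyJ and 383 CPM in BTBR T<+> tf/J, above the median of 380 CPM, and 278 CPM in NZB/BlNJ and 262 CPM in FVB/NJ, below it. Nr0b2 was above its median of 13.5 CPM in BTBR T<+> tf/J (15.3 CPM) and FVB/NJ (19.1 CPM) and below it in BXH2/TyJ and NZB/BlNJ. Slc51b, on few counts, was above its median of 0.423 CPM in all 4 (0.536 to 1.87 CPM). How often these libraries are among the 5 lowest over all genes is not given. The counts thus do not set these genes apart from others. The same 4 libraries had high erythroid markers, with summed levels of 886, 1459, 2026 and 1352 CPM against a median of 145 CPM, and low Dbp, with 12.1, 10.01, 9.48 and 27.7 CPM against a median of 106 CPM. Their hepatocyte markers summed to 86936, 115349, 72634 and 82329 CPM against a median of 107674 CPM. The part of these in the low levels was not tested, and the 4 strains were named after their values were seen.

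Covariation of the genes across strains was measured with Pearson's r and Spearman's rho of log2 CPM, leaving out Cyp27a1, and with 100000 permutations, whose smallest p is 1e-05 (4.5e-05 for r and 6.75e-05 for rho after Benjamini-Hochberg adjustment over 54 relations). Strains of a recombinant inbred family share 2 parents and are not fully independent. Of 36 pairs, 19 had an adjusted p of r under 0.05, 15 positive and 4 negative, and by rho 15 did. The share of all gene pairs that would pass in these libraries is not given. These counts, and those with Dbp and Hamp below, thus do not set the genes apart from others. Without BXH2/TyJ, NZB/BlNJ, BTBR T<+> tf/J and FVB/NJ, 10 of 36 passed. Within BXD 12 of 36 passed, within the other inbred strains 13, and within the 20 AXB/BXA strains none (0 by rho as well). Whether the families differ was not tested.

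The strongest pair was Abcb11 with Baat (r = 0.661, rho = 0.597, adjusted p = 4.5e-05). It held without the 2 strains farthest from the median of Abcb11 (r = 0.559), and r was 0.664 in BXD, 0.603 in AXB/BXA and 0.557 in the other inbred strains. Cyp7a1 with Nr1h4 gave r = 0.580 and rho = 0.564 (adjusted p = 4.5e-05; r = 0.542 without the 2 farthest strains), with 0.494, 0.607 and 0.555 in the 3 sets. Cyp8b1 with Slc51b was negative (r = -0.452, rho = -0.489, adjusted p = 4.5e-05; r = -0.473 without the 2 farthest), with -0.462, -0.541 and -0.392, although Slc51b rests on few counts. Abcb11 with Slc10a1 gave r = 0.509 and rho = 0.312 (adjusted p = 4.5e-05), and r fell to 0.335 without the 2 farthest strains. It was 0.435 in BXD, -0.0937 in AXB/BXA and 0.584 in the other inbred strains.

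Cyp7a1 with Cyp8b1 gave r = 0.297 (adjusted p = 0.0039) and rho = 0.176 (adjusted p = 0.117). Without the 4 low strains r was 0.0977 (adjusted p = 0.509), and it was 0.242 in BXD, -0.164 in AXB/BXA and 0.492 in the other inbred strains. Cyp7a1 with Nr0b2 gave r = -0.200 (rho = -0.211, adjusted p = 0.0597), which did not pass, and within BXD it was -0.343 (adjusted p = 0.0345), within AXB/BXA 0.0144 and within the other inbred strains -0.194. Cyp8b1 with Nr0b2 (r = -0.0649, rho = -0.0407, adjusted p = 0.605), Nr1h4 with Nr0b2 (r = -0.0218, rho = -0.0699, adjusted p = 0.868) and Nr0b2 with Slc51b (r = 0.00286, rho = 0.0183, adjusted p = 0.976) did not pass. Nr1h4 with Abcb11 gave r = 0.242 (rho = 0.118, adjusted p = 0.0232) but r = 0.0275 without NZB/BlNJ and BXH2/TyJ, so it rests on those strains. Abcb4 had r between -0.134 and 0.174 with the other genes, and 1 of those relations, with Abcb11, passed by rho (-0.229, adjusted p = 0.0395) but not by r.

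The clock gene Dbp covaried with Cyp7a1 (r = 0.651, rho = 0.605, adjusted p = 4.5e-05; r = 0.627 without the 2 farthest strains). It passed by r in BXD (0.651, adjusted p = 0.00027), AXB/BXA (0.738, adjusted p = 0.0027) and the other inbred strains (0.714, adjusted p = 0.00054), and by rho in BXD and the other inbred strains but not in AXB/BXA (rho = 0.684, adjusted p = 0.054). Cyp8b1 with Dbp gave r = 0.114 (rho = 0.0916, adjusted p = 0.331). In all, 4 of 9 genes passed by r with Dbp (5 by rho) and 4 of 9 with Hamp (1 by rho), the iron-regulatory hormone hepcidin, for which r was highest with Slc10a1 (0.442; rho = 0.319, adjusted p = 4.5e-05; 0.162 in BXD). Without the 4 low strains Abcb11, Nr0b2 and Baat no longer passed with Hamp. Within the clusters of Cyp27a1, the 1 relation of 22 that passed was with Slc10a1 in the 103 higher strains (r = 0.358, rho = 0.34, adjusted p = 0.00638).

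**Figure D4:**
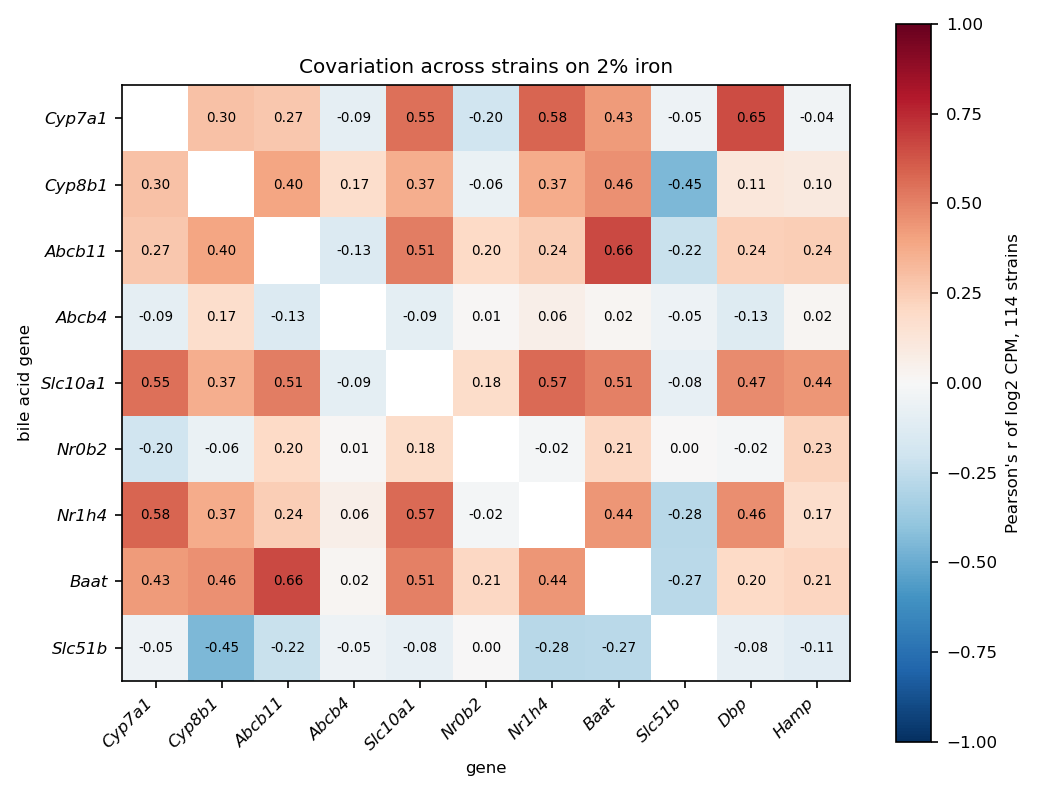
Pearson's r of log2 CPM over 114 strains for 9 of the genes (rows) with each other, Dbp and Hamp (columns), coloured from -1 to 1; empty cells are a gene with itself. Cyp7a1, Slc10a1, Nr1h4 and Baat are positively related to one another (0.43 to 0.58), whereas Abcb4 stays between -0.13 and 0.17. Without the 4 low strains (not drawn), r of Baat was 0.269 with Cyp7a1 and 0.258 with Slc10a1. With Nr1h4 it was 0.220, which did not pass (permutation test, adjusted p = 0.0681). The pairs among Cyp7a1, Slc10a1 and Nr1h4 then had r of 0.359 to 0.486.

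**Figure D5:**
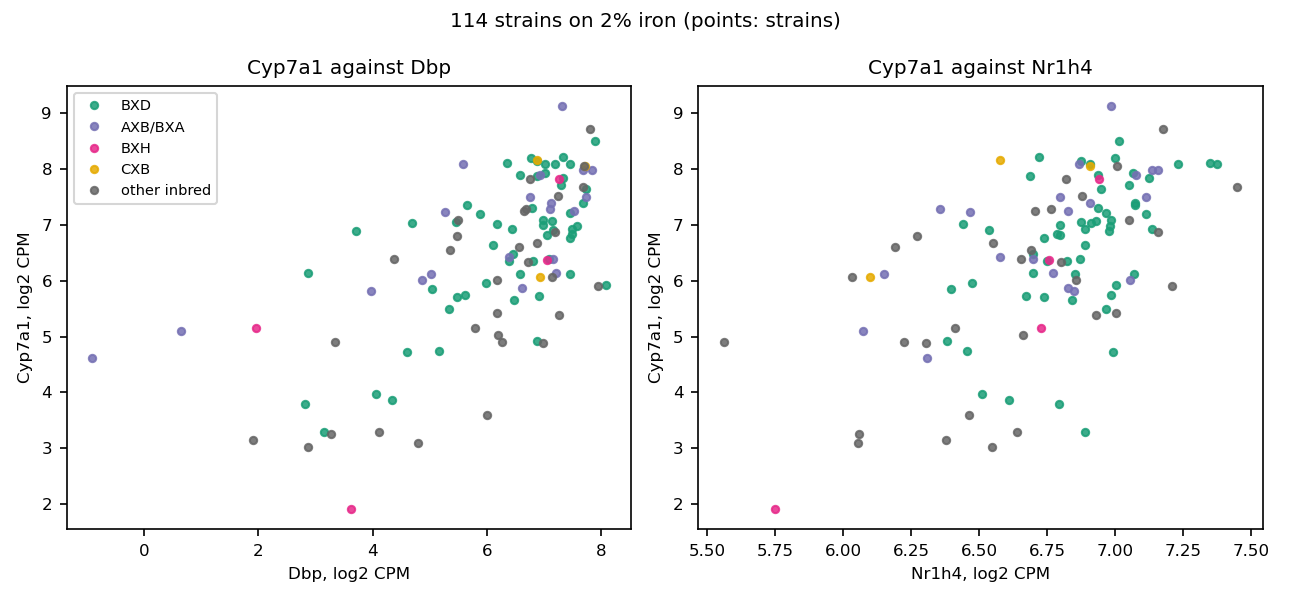
Log2 CPM of Cyp7a1 against Dbp (left) and Nr1h4 (right); points are 114 strains coloured by family. Strains with low Dbp have low Cyp7a1 (r = 0.651), and BXH2/TyJ lies at the lower left against Nr1h4 (r = 0.580).

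Over the 13901 annotated protein-coding genes compared, those most like Cyp7a1 by Spearman's rho across 114 strains included Pex26 (0.661) and Sbk1 (0.658). For Cyp8b1 they were Adck5 (0.646), Elovl3 (0.630) and Cat (0.618), for Nr0b2 Spry4 (0.449), Osgin1 (0.400) and N4bp2l1 (0.400), and for Slc51b Abcb1a (0.564), Rundc3b (0.556) and Akr1b7 (0.518). All points share the strains, libraries and scaling, and the values are a description.

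In the 56 BXD against the 20 AXB/BXA strains, Cyp27a1 was called lower in BXD (290 ± 42.9 against 326.4 ± 64.8 CPM; log2 -0.17, SE 0.06, adjusted p = 0.0488), where 11.6% of 13794 tested genes were called, 6.62% higher and 5.02% lower. The call was at the threshold: it was lost without BXD65/RwwJ (log2 -0.17) and under 5 other settings. The other 8 tested genes were not called. Cyp7a1, for example, had a median of 121 CPM among BXD strains against 151 CPM (log2 -0.23, 95% interval -0.78 to 0.32), and Baat gave log2 -0.17 (adjusted p = 0.128).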

How the data were processed

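Liver RNA of 130 mice, all labelled male, was measured in 2 sets, 15 C57BL/6J mice on 5 diets and 115 mice of 114 strains. Per the labels' protocols a stranded mRNA kit was used. The authors deposited expected counts per gene, not normalized, and TPM, which are scaled per transcript length and library, in 1 table of each kind per set. The submitters' processing notes name kallisto 0.46 and mm10, with no role. The strand used in counting and the annotation release of the diet table are not given in the sources used here.

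Expected counts were rounded to whole numbers, since the design had assumed counts and 26.5% (diet) and 27.4% (panel) of values were not whole. Symbols and coordinates came from GENCODE M21 (GRCm38), which named 34845 of 35274 and 35612 of 35711 identifiers. The sets were never pooled. Tests used edgeR 4.0.16 in R 4.3.3 (glmQLFit and glmQLFTest, TMM, filterByExpr, Benjamini-Hochberg over all tested genes, two-sided, adjusted p under 0.05), with the 5 diets in 1 fit and BXD and AXB/BXA in another. All single-gene adjusted p-values are from this test unless another is named. Nothing says whether mice shared a cage or litter. The diet tests set group differences against the spread between these mice, and the family test against that between strains. With 3 mice against 3, an exact permutation test cannot go below 0.1, so none was run on single values. Log2 CPM used a prior count of 2.

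Correlations over strains used permutation tests (two-sided, 100000 resamples), with the 2 mice of 129X1/SvJ averaged. A gene counted as clustered, and got no pooled r, when its values split into 2 components of a mixture model (Ashman D and BIC gain both past preset limits, 3 or more strains apiece). That held for Cyp27a1 (Ashman D 3.11, BIC gain 11.5), by a small margin. Other work used scipy 1.17.1, numpy 2.4.6, scikit-learn 1.9.0, pandas 2.3.3 and matplotlib 3.10.9 under Python 3.11.15. The fits and the permutation test were tested on simulated data.

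Alternatives were RLE factors, no filter, 10 counts in every library, the compared groups alone, DESeq2 1.42.0, limma 3.58.1 on log2(TPM + 1) and log2(TPM + 0.1), each mouse left out, families centred, and BXD65/RwwJ, substrains or far strains left out or averaged. Leaving out 4 low strains was added after seeing the data.

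The 10 genes, the lists and the tests were chosen with earlier results of these data known. By rule the text names the 10 genes, up to 4 genes per other list called in 2% iron against 50 ppm or chow, fixed gene pairs plus the 3 largest by rho, the 3 genes most alike for 4 of the genes, and the 2 lowest and 2 highest strains. One of the genes this rule names is not reported here. Other names were chosen after their values were seen.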

Additional observations from a re-analysis of the deposited data

Results flagged for a closer look

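Outlying values were sought by Dixon's test in the 4 BXH strains, the one group of the report with 4 to 10 samples, for each of the 10 genes. In BXH2/TyJ, Baat had 43.5 CPM, far below the other 3 strains (140 to 160 CPM). Its Dixon ratio of 0.8297 was only just past the critical value of 0.829. Slc51b had 0.708 CPM in BXH2/TyJ, above the other 3 (0.244 to 0.300 CPM), on few counts. Chance alone gives about 1 such value in 20 groups, and 10 groups were looked at. These 10 are the same 4 mice read for each gene, so they are not independent. BXH2/TyJ is 1 mouse, and no cause was tested.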

How the results depend on the processing

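Directions of the 4 genes called in 2% iron against 50 ppm and the 5 called against chow held under every alternative and every left-out mouse. In 2% iron against 50 ppm the count of 4 called genes was 4 to 5 under the other settings, and 2 to 3 when 1 mouse was left out (2 without replicate 3 of 2% iron or replicate 1 of 50 ppm). Against chow the count of 5 was 4 to 6, except 3 under limma with either pseudocount, which lost Cyp27a1 and Nr1h4. The TPM scale moved the median of all genes by 0.13 (log2) there with pseudocount 0.1, and by 0.10 and 0.13 with pseudocounts 1 and 0.1 in 2% iron with cellulose against 50 ppm. Against 500 ppm the count of 2 was 0 in the fit of the 2 groups alone and 0 under limma with either pseudocount, 3 with DESeq2, and 0 to 2 when 1 mouse was left out. For 2% iron with cellulose against 2% iron, DESeq2 gave 2 where edgeR gave 0, and against 50 ppm limma gave 4 of the 7 with either pseudocount. The 1 gene called between BXD and AXB/BXA became 0 with no filter, with 10 counts in every library, with limma (both pseudocounts), without BXD65/RwwJ and with substrains averaged. Of 36 pairs, 19 passed, 16 to 20 under the planned settings, and 10 without the 4 low strains, a setting chosen after seeing the data. Signs turned for values near 0: Abcb4 in 2% iron against chow (0.0355 and 0.0358 under limma with pseudocounts 1 and 0.1, and -0.269 to 0.0290 when 1 mouse was left out), Nr0b2 in BXD against AXB/BXA (-0.00701 and -0.0142 under limma with pseudocounts 1 and 0.1), and r of Nr0b2 with Slc51b (-0.00926 on log2(TPM + 0.1), -0.00156 without BXD65/RwwJ, -0.00169 without the 2 farthest strains). The cause was not tested. No paired analysis was possible because the labels give no pairing of mice between diets. The replicate numbers used here only tell the mice of a group apart. Slc51b, with 9 or fewer counts per diet library, was not tested.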

Other observations

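The genes most opposed to Cyp7a1 across the 114 strains, a list outside the naming rule, were Rbpms (rho = -0.704), Arntl (rho = -0.661), the core clock activator BMAL1, and Chka (rho = -0.658). For Slc51b the most opposed gene was Slco1a1 (rho = -0.557), the uptake carrier that was lower on 2% iron in the diet study, and for Abcb11 the third most alike was Hsd3b7 (rho = 0.752), the next enzyme after Cyp7a1 in bile acid synthesis. These are values over shared libraries, with no test. Vdr, a bile acid sensor in the gut and not tested here for low counts, had 0.86 ± 0.34 CPM (n = 3) in the cellulose group and at most 0.08 ± 0.08 CPM as a mean on the other diets.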
